A study of Mus musculus with 18 samples.

Results

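The interferon response genes are 48 transcripts known to accumulate in cells that have sensed interferon or foreign nucleic acid. They were taken by gene name from a list of 48 names, chosen with earlier results of these data known. Counts of members beside shares of all genes are therefore descriptions. All 48 were found among the 45706 genes of the deposited table, and all 48 passed the filter on low counts that left 14788 genes for testing. The study sequenced total RNA of BMC cells, an immortalised line of mouse brown preadipocytes that had been differentiated into brown adipocytes, the heat-producing kind of fat cell. Its design text states that transcripts were profiled before and after norepinephrine, the transmitter of sympathetic nerves, started lipolysis in these cells.

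Every culture received the same differentiation treatment with insulin, triiodothyronine, dexamethasone, indomethacin and isobutylmethylxanthine and was used on day 7. The 0 h group was not induced, and the 4 h and 24 h groups were harvested at those times after 1 µM norepinephrine. Each group held 6 libraries whose titles carry replicate numbers 1 to 6, and the labels give 1 batch for all 18. The model is a single cell line. No label says that the replicates were separate cultures, and the p-values therefore refer to the spread among libraries, part or all of which may be technical.

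Type I interferons bind a receptor on the cell surface whose kinases phosphorylate STAT proteins. A complex of these with IRF9 binds the interferon-stimulated response element (ISRE) in the promoters of antiviral genes, while interferon gamma acts through a different element, GAS. The induced proteins detect viral RNA, block its translation or replication, modify other proteins with ISG15 or ADP-ribose, and feed back on the pathway itself. Adipocytes and preadipocytes, like most cells, can mount this response and hold a low level of many of these transcripts without infection.

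The promoters show what part of the group carries such an element. RefSeq promoter windows (build GRCm38.p6), from 250 bases before the transcription start to 50 bases from it onwards, matched 39 of the 48 members. No entry was matched for Ifi27, Usp18, Mx1, Mx2, Zbp1, Parp9, Parp14, Rtp4 and Dhx58. The core ISRE letters GAAANNGAAA, searched on both strands with overlapping matches counted, occurred in 19 of these 39 windows (48.7%), against 943 of 27025 windows in the whole table (3.49%). The GAS letters TTCNNNGAA occurred in 8 of 39 (20.5%), against 8.47% of all windows. A match describes letters in a window and is not a measured binding site. The windows below belong to Ifit1, an RNA-binding antiviral effector, to its neighbours Ifit3 and Ifit3b, to Isg15, the ubiquitin-like modifier, to Cxcl10, a chemokine, and to Tap1, the peptide transporter subunit whose 24 h libraries were all above its 0 h libraries. Capitals mark the ISRE letters on either strand, and Tap1 is shown as a window without them.
Ifit1, chr19:34640639-34640938, plus strand: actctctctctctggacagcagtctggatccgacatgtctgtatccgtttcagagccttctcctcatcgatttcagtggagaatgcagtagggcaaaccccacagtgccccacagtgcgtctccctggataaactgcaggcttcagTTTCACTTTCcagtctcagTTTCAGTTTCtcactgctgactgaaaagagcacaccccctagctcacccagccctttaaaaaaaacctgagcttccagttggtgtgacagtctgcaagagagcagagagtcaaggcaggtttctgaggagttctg
Ifit3, chr19:34583279-34583578, plus strand: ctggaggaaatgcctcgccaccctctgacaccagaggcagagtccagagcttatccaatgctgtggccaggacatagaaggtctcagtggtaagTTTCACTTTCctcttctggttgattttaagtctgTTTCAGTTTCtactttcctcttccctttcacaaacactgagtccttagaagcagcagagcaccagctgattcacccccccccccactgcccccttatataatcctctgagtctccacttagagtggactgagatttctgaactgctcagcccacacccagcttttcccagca
Ifit3b, chr19:34607707-34608006, plus strand: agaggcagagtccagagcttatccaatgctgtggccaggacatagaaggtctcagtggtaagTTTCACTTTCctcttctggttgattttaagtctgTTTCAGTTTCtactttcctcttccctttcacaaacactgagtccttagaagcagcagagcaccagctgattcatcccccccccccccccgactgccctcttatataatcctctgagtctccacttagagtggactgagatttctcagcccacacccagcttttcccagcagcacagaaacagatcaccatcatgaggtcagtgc
Isg15, chr4:156200769-156201068, minus strand: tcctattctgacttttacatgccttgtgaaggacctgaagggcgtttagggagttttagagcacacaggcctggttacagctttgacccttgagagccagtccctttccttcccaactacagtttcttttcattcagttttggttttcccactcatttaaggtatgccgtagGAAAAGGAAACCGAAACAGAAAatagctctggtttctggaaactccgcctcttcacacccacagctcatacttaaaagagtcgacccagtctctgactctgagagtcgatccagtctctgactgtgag
Cxcl10, chr5:92348840-92349139, minus strand: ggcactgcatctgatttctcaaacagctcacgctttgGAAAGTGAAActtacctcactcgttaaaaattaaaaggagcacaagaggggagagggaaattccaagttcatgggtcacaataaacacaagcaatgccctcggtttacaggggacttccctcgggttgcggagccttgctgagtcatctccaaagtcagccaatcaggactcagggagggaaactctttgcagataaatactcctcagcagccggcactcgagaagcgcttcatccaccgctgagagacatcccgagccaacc
Tap1, chr17:34187306-34187605, plus strand: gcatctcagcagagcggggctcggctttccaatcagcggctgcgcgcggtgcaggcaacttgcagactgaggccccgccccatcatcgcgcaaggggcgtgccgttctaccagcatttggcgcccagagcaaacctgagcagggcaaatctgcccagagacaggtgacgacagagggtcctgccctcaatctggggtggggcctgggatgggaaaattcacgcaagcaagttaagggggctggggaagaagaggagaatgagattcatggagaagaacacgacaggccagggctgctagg

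Counted from the transcription start, the 2 matches of Ifit1 began at -104 and -85. Those of Ifit3 began at -156 and -122, and those of its near-identical copy Ifit3b at -188 and -154. Isg15 held 3 overlapping matches, the highest number among the members, the first beginning at -78 and the last at -66. The single match of Cxcl10 lay at -213. As a description, the median log2 fold change of 24 h against 0 h was 0.45 over the 19 members with the ISRE letters. It was 0.29 over the 20 without. The ranges, 0.24 to 0.83 and 0.12 to 0.67, overlap, and the difference was not tested. Members without a matched window are in neither group.

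Some libraries stood apart, and the labelled times did not order genes known to respond to norepinephrine. Expected counts totalled 7010740 to 26501200 per library. The lowest total belonged to 24 h replicate 5, in which 41.5% of counts fell on the rRNA-collecting genes Yam1 and Gm26917, against 6.78% to 10.6% in the other 17 libraries, and 18.1% on mitochondrial rRNA genes, against 4.74% to 9.51%. Nr4a1, an immediate early gene that beta-adrenergic signalling induces, lay at 81.4 to 141 CPM (counts scaled by library size) in the libraries numbered 1 and 4, at 8.82 to 12.1 in those numbered 2 and 5 and at 5.35 to 6.90 in those numbered 3 and 6, whatever their labelled time. Whether the labelled times give the time since norepinephrine was not tested. Libraries are therefore described both by labelled time and by these 3 sets of replicate numbers, which were noticed from correlations over all genes of the same libraries, so that p-values between sets describe the difference and do not support the grouping. Among other cell types, 3 of 10 macrophage markers (Adgre1, C1qa and C1qb) were at 0 counts in all 18 libraries, and the summed macrophage level was 2.98 to 5.55 CPM over the libraries. T, B and NK cell markers summed to at most 0.475 CPM with 2 of 10 at 0, and endothelial markers to at most 1.84 CPM with 1 of 8 at 0. Plasmacytoid dendritic cell markers summed to 140 to 209 CPM with Siglech at 0. Only 2 of these 6 markers passed the filter on low counts, among them the member Bst2, at 45.5 to 99.5 CPM. Smooth muscle markers summed to 29.4 to 85.9 CPM. The 10 brown adipocyte markers summed to 3063 to 4362 CPM. Fabp4, Adipoq and Lipe, which mark adipocytes in general, made up most of that sum. Ucp1, the uncoupling protein that defines brown fat, lay at 12.8 to 18.0261 CPM in numbers 1 and 4, at 9.35 to 10.9 in numbers 2 and 5 and at 1.08 to 2.65 in numbers 3 and 6.

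Levels of the members were compared per kilobase of exon. Lgals3bp, a secreted glycoprotein, had the highest mean level over the 18 libraries, 130 CPM per kilobase, followed by Bst2, the tetherin that holds budding virus on the cell, at 69.0. Ifi27, a small mitochondrial and membrane protein, lay at 68.9, Gbp3, a guanylate-binding protein, at 60.5 and Ifit3 at 54.4. The lowest was Mx1, a dynamin-like antiviral GTPase, at 0.769. The members thus ranged from abundant to barely expressed in cells whose treatment protocol names no interferon. In bulk RNA, fewer cells expressing a gene and less RNA per cell cannot be told apart.

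Across labelled times the 48 members tended towards the highest level at 24 h, by amounts that did not pass the test. By mean level, 47 of 48 were highest at 24 h and 46 of 48 were lowest at 0 h. The median member differed by 0.16 on the log2 scale at 4 h against 0 h, by 0.37 at 24 h against 0 h and by 0.24 at 24 h against 4 h, where the medians of all tested genes were 0.0080, -0.0041 and -0.0069. Positive values were found in 47 of 48 members in each of these comparisons, which share libraries. With edgeR's quasi-likelihood test adjusted over all genes, 0 of 48 members were called at 4 h against 0 h (0% of all genes), 0 at 24 h against 0 h (0%) and 0 at 24 h against 4 h (0%). DESeq2 also called 0 members in each, and 0% of the genes it tested.

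At an unadjusted p under 0.05, 32 of 48 members were higher at 24 h than at 0 h, where 0.872% of all genes were. The 16 that were not include Stat2, Adar, Oas1a, Cxcl10 and Ifi27. At 24 h against 4 h this count was 6 of 48 (0.636% of all genes), namely Ifit1, Mx2, Igtp, Tap1, Xaf1 and Rtp4, and at 4 h against 0 h it was 0 of 48 (0.325%). Without 24 h replicate 5, 22 of 48 members were higher at 24 h than at 0 h (0.563% of all genes), with a median of 0.26. The median of 24 h against 4 h was then 0.13, and 0 members were higher at an unadjusted p under 0.05 (0.476% of all genes).

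The replicate number pairs the libraries, and a fit with that number as a block beside time brought more members under an unadjusted p of 0.05, while the median member at 24 h against 0 h was 0.34. At an unadjusted p under 0.05, 45 of 48 were higher at 24 h than at 0 h (4.52% of all genes), the exceptions being Herc6, Nmi and Ifi27, and 44 of 48 were so without 24 h replicate 5 (3.92%). After adjustment over all genes 0 members were called at 24 h against 0 h (0.00676% of all genes), 0 at 4 h against 0 h (0%) and 0 at 24 h against 4 h (0%). The lowest adjusted p by edgeR was 0.0925, for Shisa5, an endoplasmic reticulum protein, with a log2 fold change of 0.23 (SE 0.04). At 4 h against 0 h the blocked count was 8 of 48 (4.98% of all genes) and at 24 h against 4 h it was 15 of 48 (2.39%). With limma-voom, library weights and the block, 2 members passed at 24 h against 0 h, Igtp, an immunity-related GTPase, and Rtp4, a receptor transporter protein, among 9 genes in all (0.0609%).

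**Figure D1:**
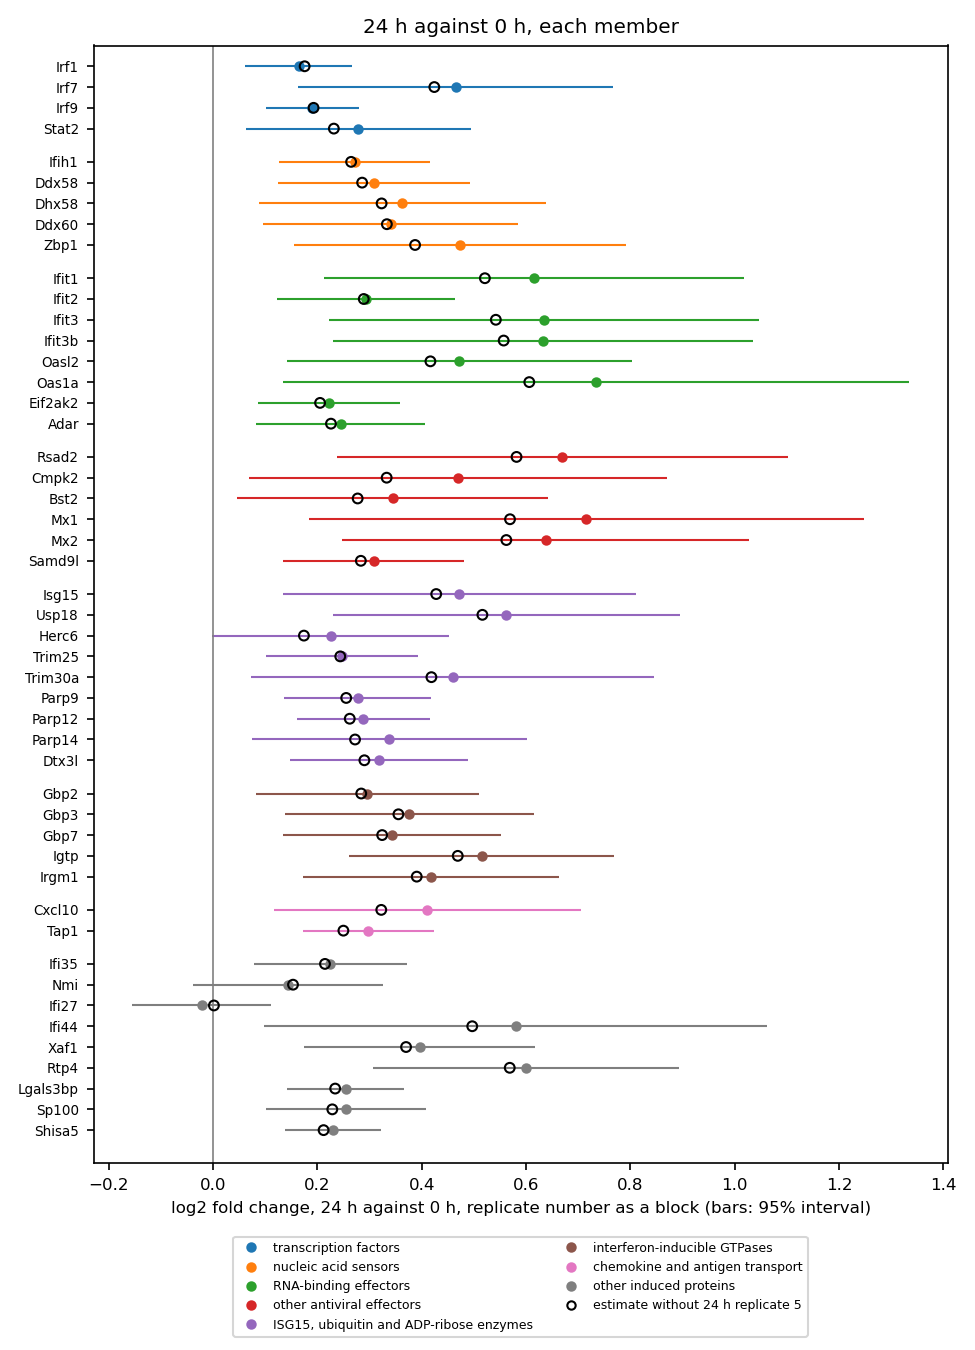
Log2 fold change of 24 h against 0 h for each of the 48 members (horizontal axis), grouped by role, from the fit with the replicate number as a block. Filled points and bars are estimates with 95% intervals over 18 libraries, and open circles the estimates without 24 h replicate 5; 47 of 48 filled points lie above 0, and no member was called after adjustment over all genes.

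Within the replicate numbers, 40 of 48 members had the 24 h library above the 0 h library in all 6 numbers, as 2.55% of all genes had. At 4 h against 0 h, 4 of 48 members were higher in all 6 numbers (3.53% of all genes), and at 24 h against 4 h 0 of 48 were (1.37%). The mean log2 CPM of the 48 members was 5.00 to 5.31 in the 0 h libraries, 4.98 to 5.61 at 4 h and 5.16 to 6.07 at 24 h, so the groups overlap. Within a number, the mean over members was higher at 24 h than at 0 h by 0.16 in number 1, 0.50 in number 2, 0.25 in number 3, 0.32 in number 4, 0.84 in number 5 and 0.30 in number 6. The 4 h libraries did not share a direction. At 4 h, number 1 stood 0.27 above its 0 h library, number 4 0.11, number 5 0.37 and number 6 0.42. Number 2 stood at -0.23 and number 3 at -0.09. Without 4 h replicate 5 the median member of 4 h against 0 h was 0.09, and without 4 h replicate 6 it was 0.10.

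**Figure D2:**
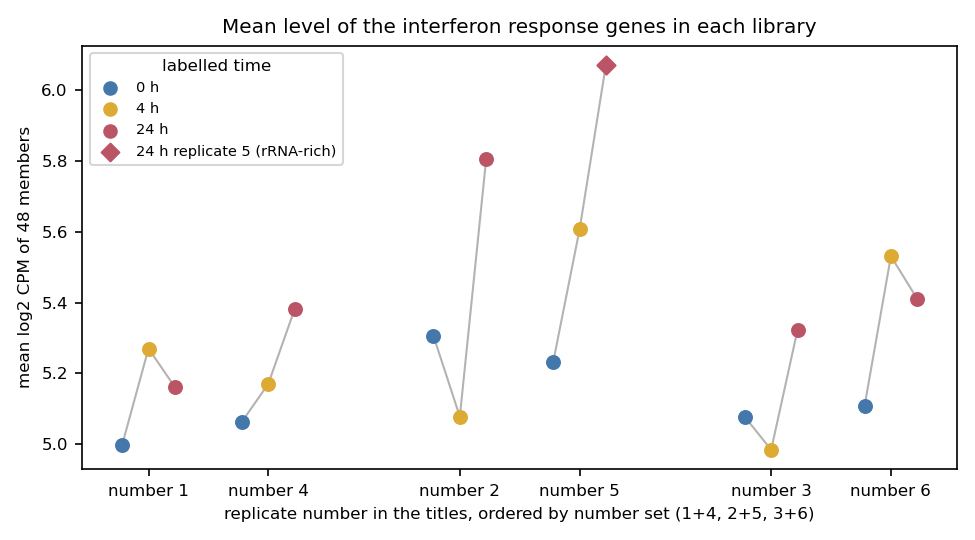
Mean log2 CPM of the 48 members (vertical axis) in each of the 18 libraries, arranged by replicate number in set order (horizontal axis) and coloured by labelled time; a line joins the libraries of 1 number. The 24 h point lies above the 0 h point in all 6 numbers, and the highest value, 6.07, is that of 24 h replicate 5 (diamond).

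At 4 h, libraries of the same number set differed from each other across the whole group. All 48 members were higher in 4 h replicate 5 than in 4 h replicate 2, with a mean difference of 0.53 on the log2 scale, and all 48 were higher in 4 h replicate 6 than in 4 h replicate 3, by 0.55 on average. In numbers 1 and 4 the mean difference at 4 h was -0.10, and 8 of 48 members were higher in number 4. At 0 h the corresponding mean differences were 0.07, -0.07 and 0.03. No share of all genes is given for the counts of members at 4 h. The library totals at 4 h were 11455600 for replicate 2, 15657200 for replicate 5, 21314500 for replicate 3 and 8924700 for replicate 6, and their part in the difference was not tested. Averaged over the labelled times, number 4 against 1 gave 0 called members (0.00676% of all genes), number 5 against 2 gave 0 (0%) and number 6 against 3 gave 0 (0%) by edgeR, with 1, 3 and 4 members at an unadjusted p under 0.05, where 2.91%, 5.99% and 11.7% of all genes were. These member counts are near or below those shares. DESeq2 also called 0 in each, where 0.0135%, 0.0352% and 1.55% of the genes to which it gave an adjusted p were called. In number 6 against 3 it gave an adjusted p to only 3607 genes, and a member outside these could not be called. By sign, 43, 46 and 47 of 48 members were positive, where 49.8%, 50.6% and 46.9% of all genes were. The median member stood at 0.07, 0.14 and 0.19, against -0.0003, 0.0016 and -0.0098 over all genes. A shift to 1 side was thus found between numbers of 1 set as well as between labelled times. Without 24 h replicate 5, number 5 against 2 had 38 positive members and a median of 0.06.

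The RNA-binding and other antiviral effectors had the largest differences at 24 h. The median log2 fold change of 24 h against 0 h was 0.61 over the 8 RNA-binding effectors and 0.65 over the 6 other antiviral effectors, against 0.25 over the 4 transcription factors and 0.26 over the 9 other induced proteins. The 5 nucleic acid sensors had a median of 0.33, the 9 ISG15, ubiquitin and ADP-ribose enzymes 0.34, and the 5 interferon-inducible GTPases 0.38. These medians describe groups of unequal size and were not compared by a test. They include 24 h replicate 5, the highest library for 40 of 48 members. Over all 48 members the median was 0.37 with that library and 0.26 without it.

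Among the transcription factors, Irf7 had the largest difference between 24 h and 0 h. IRF7 is the factor that amplifies type I interferon production. Its level had a lowest, median and highest value of 31.01, 39.5 and 42.0 CPM at 0 h, of 31.6, 37.7 and 68.7 at 4 h, and of 35.8, 54.7 and 75.3 at 24 h. The ranges overlap, and the 24 h library was above the 0 h library in all 6 numbers. The log2 fold change was 0.50 (SE 0.19, edgeR unadjusted p = 0.0155). Stat2, the STAT of the type I pathway, lay at 43.2, 66.1 and 75.0 CPM at 0 h and at 48.6, 74.5 and 116 at 24 h, again lowest, median and highest. Its log2 fold change was 0.32 (SE 0.22), and 0.17 (SE 0.21) without 24 h replicate 5. Numbers 1 and 4 were its lowest libraries at each time. Irf1, the factor shared with the interferon gamma pathway, and Irf9, the DNA-binding partner of STAT2, had log2 fold changes of 0.17 and 0.19.

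Among the nucleic acid sensors, Ddx58, which encodes the RNA sensor RIG-I, had the highest CPM level and Zbp1, a sensor of Z-form nucleic acid, the largest difference. Ddx58 (chr4:40203773-40239828) lay at 95.8, 106 and 116 CPM at 0 h, at 92.1, 119 and 142 at 4 h and at 114, 121 and 167 at 24 h. The ranges overlap, with 2 of its 24 h libraries just below its highest 0 h library, and the log2 fold change was 0.32 (SE 0.11, unadjusted p = 0.00964 by edgeR). Zbp1 lay at 6.60, 8.68 and 12.5 CPM at 0 h and at 7.56, 11.6 and 24.2 at 24 h. Those ranges overlap widely, with a log2 fold change of 0.54 (SE 0.24). Without 24 h replicate 5, which held its highest value, the difference of Zbp1 was 0.35 (SE 0.21). Ifih1, the sensor MDA5, Dhx58, its regulator LGP2, and Ddx60, a helicase, had log2 fold changes of 0.28, 0.39 and 0.33.

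Ifit1, Ifit3 and Ifit3b, whose promoters are printed above, had log2 fold changes of 24 h against 0 h close to each other. Ifit1 (chr19:34640871-34650009) lay at 55.5, 63.2 and 67.6 CPM at 0 h, at 57.3, 72.2 and 97.8 at 4 h and at 65.8, 83.1 and 174 at 24 h. Only its lowest 24 h library, replicate 1, fell inside the 0 h range. The log2 fold change of 24 h against 0 h was 0.70 (SE 0.20) and, without 24 h replicate 5, 0.50 (SE 0.17). Ifit3 (chr19:34583531-34588731) lay at 64.6, 72.6 and 80.8 CPM at 0 h and at 72.6, 100.6 and 212 at 24 h, with a log2 fold change of 0.72 (SE 0.22). Ifit3b lay at 18.03, 20.5 and 25.1 CPM at 0 h and at 23.2, 26.9 and 62.3 at 24 h, with the same log2 fold change of 0.72 (SE 0.22). As 61.8% of the 31-base words of Ifit3 transcripts also occur in Ifit3b, the split of reads between the pair is uncertain.

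Oas1a, an enzyme that makes 2-5A, the activator of RNase L, had the largest log2 fold change of 24 h against 0 h, 0.83 (SE 0.45), with the widest error. It lay at 1.63, 2.94 and 5.20 CPM at 0 h, at 1.68, 3.01 and 11.1 at 4 h and at 2.25, 6.52 and 10.6 at 24 h. In number 1 it was at 2.21, 2.20 and 2.25 CPM at the 3 times. A share of 68.8% of its 31-base words occurs in other genes, above all Oas1g, so its counts are uncertain. Adar, which edits adenosine to inosine in double-stranded RNA, lay at 85.0, 102 and 114 CPM at 0 h and at 98.4, 112 and 161 at 24 h, with a log2 fold change of 0.26 (SE 0.14), and 0.17 (SE 0.13) without 24 h replicate 5. Ifit2, the OAS-like Oasl2 and the translation-blocking kinase Eif2ak2 had log2 fold changes of 0.30, 0.53 and 0.24.

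Rsad2, the radical enzyme viperin, lay at 7.70, 11.02 and 12.1 CPM at 0 h, at 8.22, 12.1 and 17.1 at 4 h and at 9.06, 15.6 and 32.5 at 24 h. Its highest values were 32.5 in 24 h replicate 5 and 24.6 in 24 h replicate 2, and its log2 fold change was 0.76 (SE 0.26, unadjusted p = 0.0102 by edgeR). Mx1 lay at 1.499, 2.11 and 2.92 CPM at 0 h and at 1.94, 3.28 and 8.62 at 24 h. The same 2 libraries held its highest values, 8.62 and 5.33 CPM. Its log2 fold change was 0.81 (SE 0.30), and 0.59 (SE 0.25) without 24 h replicate 5. Samd9l, an antiviral restriction factor, lay at 52.2, 58.2 and 68.2 CPM at 0 h and at 60.6, 65.2 and 100.8 at 24 h, with a log2 fold change of 0.33 (SE 0.14). Cmpk2, a mitochondrial nucleotide kinase beside Rsad2 in the genome, Bst2 and Mx2 had 0.59, 0.39 and 0.71. Without 24 h replicate 5, which held its highest value, Cmpk2 had 0.26 (SE 0.23).

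Usp18, the protease that removes ISG15 and damps the type I receptor, had the largest difference among the ISG15, ubiquitin and ADP-ribose enzymes. It lay at 13.6, 15.1 and 19.7 CPM at 0 h, at 12.6, 18.2 and 31.8 at 4 h and at 17.6, 20.5 and 44.8 at 24 h, with a log2 fold change of 0.61 (SE 0.24). Its 24 h values again overlapped those at 0 h. Isg15 (chr4:156199424-156200818) lay at 8.77, 10.9 and 13.5 CPM at 0 h and at 11.2, 16.1 and 21.9 at 24 h, and differed by 0.50 (SE 0.18). Trim25, the ubiquitin ligase that acts on RIG-I, lay at 104, 111 and 159 CPM at 0 h and at 117, 128 and 203 at 24 h (log2 fold change 0.26, SE 0.17). Parp14, a mono-ADP-ribosyltransferase, lay at 45.5, 56.8 and 70.6 CPM at 0 h and at 48.8, 65.8 and 128 at 24 h (0.41, SE 0.22). Without 24 h replicate 5, the values were 0.15 for Trim25, 0.22 for Parp14, 0.15 for Herc6 and 0.17 for Parp12. Among the rest, Herc6, the mouse ISG15 ligase, had 0.27, Trim30a 0.50, Parp9 and its partner Dtx3l 0.29 and 0.34, and Parp12 0.31. Parp9 and Dtx3l overlap on opposite strands.

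Of the GTPases that act on vacuoles of intracellular microbes, Gbp3 was the highest per kilobase. Gbp3 lay at 126, 171 and 230 CPM at 0 h and at 170, 215 and 324 at 24 h, with a log2 fold change of 0.38 (SE 0.20). Igtp lay at 28.9, 33.6 and 41.7 CPM at 0 h and at 37.8, 51.4 and 68.0 at 24 h. Only 2 of its 24 h libraries fell inside the 0 h range, and its log2 fold change was 0.55 (SE 0.15, unadjusted p = 0.00152 by edgeR). Igtp overlaps Irgm2, with which it shares 15.9% of its 31-base words, so that split is uncertain. Gbp2, Gbp7 and Irgm1 had log2 fold changes of 0.32, 0.36 and 0.45, and Gbp2 had 0.19 without 24 h replicate 5.

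Tap1 was the only member whose 24 h libraries all lay above its 0 h libraries, as 6 of all tested genes did (0.0406%). It lay at 42.8, 46.8 and 50.8 CPM at 0 h, at 44.6, 51.1 and 57.6 at 4 h and at 53.9, 55.4 and 72.6 at 24 h. Its log2 fold change was 0.33 (SE 0.08, unadjusted p = 0.000801, adjusted p = 1.00 by edgeR), and with the block 0.30 (SE 0.06, adjusted p = 0.111). Cxcl10, a chemokine that draws T cells, lay at 31.5, 51.6 and 57.4 CPM at 0 h and at 36.5, 63.8 and 113 at 24 h. Its log2 fold change was 0.49 (SE 0.26), and 0.29 (SE 0.24) without 24 h replicate 5.

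Among the other induced proteins, Ifi44, a cytoplasmic antiviral protein, lay at 23.7, 25.9 and 46.4 CPM at 0 h and at 25.2, 39.6 and 94.5 at 24 h, with a log2 fold change of 0.67 (SE 0.30), and 0.41 (SE 0.27) without 24 h replicate 5. Lgals3bp lay at 291, 350 and 376 CPM at 0 h and at 358, 382 and 470 at 24 h, with 0.26 (SE 0.10). The abundant Lgals3bp thus differed less than the scarcer Ifi44 but with a smaller error. Rtp4 lay at 25.9, 29.1 and 30.995 CPM at 0 h and at 28.5, 45.1 and 61.7 at 24 h, with 0.63 (SE 0.16). Ifi27 was the exception of the group. Its 0 h libraries lay between 84.1 and 118 CPM and its 24 h libraries between 82.7 and 117, with a log2 fold change of -0.04 (95% interval -0.27 to 0.19). Ifi35 had 0.23, Nmi, its partner, 0.12, Xaf1, a regulator of apoptosis, 0.41, the nuclear body protein Sp100 0.28 and Shisa5 0.24.

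**Figure D3:**
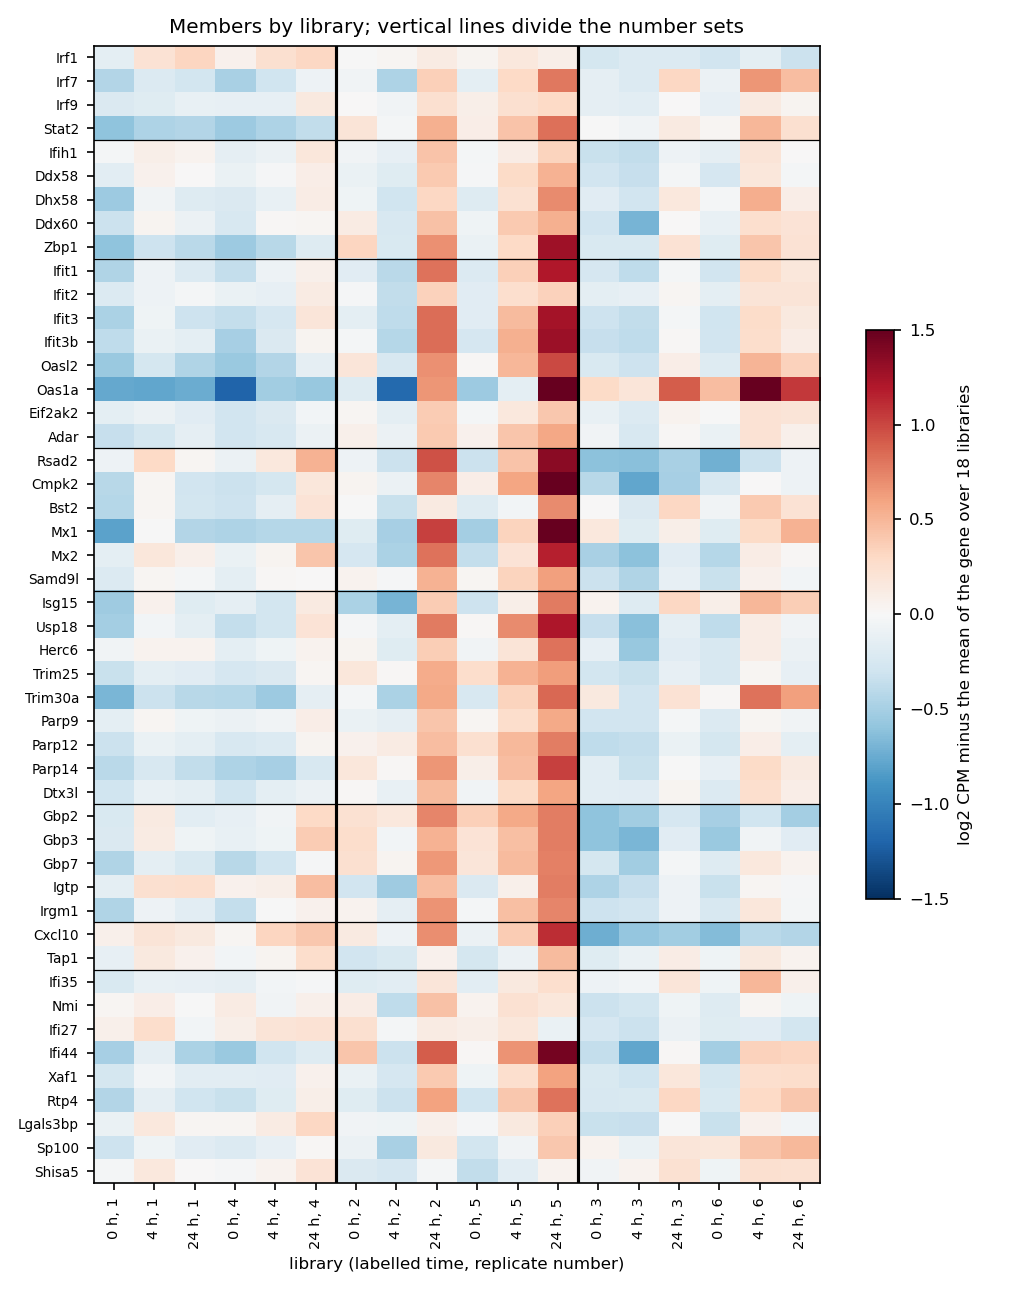
Log2 CPM of each member minus its mean over the 18 libraries (colour, cut at 1.5 in either direction), with members in rows by role and libraries in columns by number set. The 24 h replicate 5 column is the darkest red, being the highest library for 40 of 48 members, and the 0 h columns of numbers 1 and 4 are mostly blue.

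The sets of replicate numbers separated the members in a way that depended on the gene. By mean level over 6 libraries, 24 h replicate 5 included, 35 of 48 members were highest in numbers 2 and 5. In numbers 1 and 4, 28 of 48 were lowest. Over the 0 h libraries alone, 32 were highest in numbers 2 and 5 and 28 lowest in numbers 1 and 4. No share of all genes is given for these orders. With edgeR, 28 of 48 members were called between numbers 2 and 5 and numbers 1 and 4 (59.5% of all genes), 27 higher (29.6%) and 1 lower (29.9%). The median member differed by 0.30, against -0.0025 over all genes. Between numbers 3 and 6 and numbers 1 and 4, 20 members were called (59.7% of all genes), 11 higher (30.2%) and 9 lower (29.5%), with a median of 0.06 against 0.0042. Between numbers 3 and 6 and numbers 2 and 5, 30 were called (57.1% of all genes), 3 higher (28.6%) and 27 lower (28.5%), with a median of -0.31 against 0.0012. The share of members called was near that of all genes in the first of these comparisons, below it in the second and somewhat above it in the third. In both comparisons with numbers 2 and 5, the called members lay mostly on 1 side. Without 24 h replicate 5 the counts were 28, 21 and 30, beside 59.3%, 60.1% and 57.3% of all genes. The median member then stood at 0.28, 0.05 and -0.26. The summed level of 9 preadipocyte and fibroblast markers, none of them at 0, was 821 to 958 CPM in numbers 1 and 4, 1055 to 1520 in numbers 2 and 5 and 1570 to 1967 in numbers 3 and 6, and its part in these differences was not tested.

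These counts between sets depend on the scaling of libraries. With library totals in place of TMM scaling, the median of all genes stood at -0.09, 0.17 and 0.25 in the 3 comparisons in the order above. Members called were then 13 higher and 0 lower in the first, 13 higher and 2 lower in the second and 5 higher and 5 lower in the third, where 25.6%, 30.7% and 34.7% of all genes were called. The median member of the third stood at -0.02. At 24 h against 0 h the same totals put the median of all genes at -0.17 and that of the members at 0.14.

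**Figure D4:**
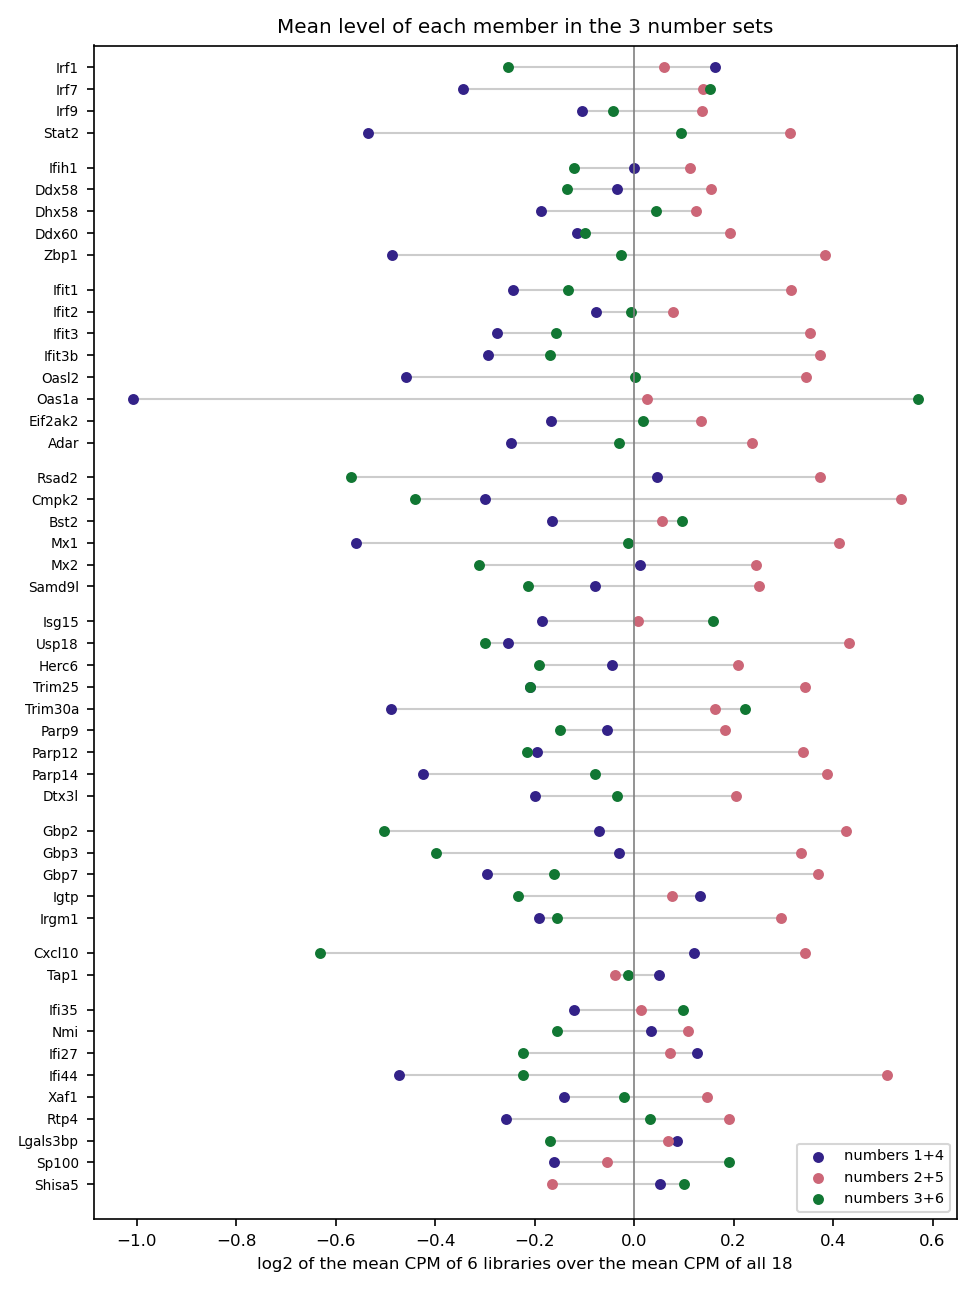
Mean CPM of each member in the 6 libraries of a number set, as log2 of its ratio to the mean of all 18 libraries (horizontal axis), by role. Numbers 2 and 5 hold the highest mean for 35 of 48 members, and Oas1a spans the widest range, from numbers 1 and 4 to numbers 3 and 6.

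Lack of overlap between sets was no more frequent among the members than among all genes. Numbers 2 and 5 lay above numbers 1 and 4 without overlap in 4 of 48 members (17.4% of all genes). Numbers 3 and 6 lay above numbers 1 and 4 in 2 (19.1%) and below them in 3 (19.5%), and below numbers 2 and 5 in 4 (15.5%). Stat2 was lower in numbers 1 and 4 than in both other sets without overlap. Its lowest, median and highest levels were 43.2, 47.6 and 50.9 CPM in numbers 1 and 4, 64.1, 81.8 and 116 in numbers 2 and 5 and 63.4, 69.3 and 92.6 in numbers 3 and 6. Numbers 2 and 5 stood 0.81 above numbers 1 and 4 on the log2 scale (SE 0.10, edgeR adjusted p = 9.13e-06), and numbers 3 and 6 stood 0.62 above (SE 0.10, adjusted p = 0.000105). Oas1a lay at 1.63 to 2.61 CPM in numbers 1 and 4 and at 4.28 to 11.1 in numbers 3 and 6, a log2 difference of 1.49 (SE 0.27, adjusted p = 0.000218 by edgeR). Zbp1 was also lowest in numbers 1 and 4, at 6.60 to 8.76 CPM, against 8.56 to 24.2 in numbers 2 and 5, a difference of 0.76 (SE 0.14). Irf7 lay at 31.01 to 41.1 CPM in numbers 1 and 4 and at 37.9 to 68.7 in numbers 3 and 6, a difference of 0.46 (SE 0.15, adjusted p = 0.0133 by edgeR).

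Gbp2 and Cxcl10 were lowest in numbers 3 and 6. Gbp2, a guanylate-binding protein, lay at 58.1 to 84.1 CPM in numbers 1 and 4, at 76.2 to 117 in numbers 2 and 5 and at 45.0 to 57.2 in numbers 3 and 6, which do not overlap with either. Numbers 3 and 6 were called lower than numbers 2 and 5, with a log2 difference of -0.92 (SE 0.09, edgeR adjusted p = 6.65e-07). Cxcl10 lay at 31.5 to 39.8 CPM in numbers 3 and 6, below its 53.7 to 69.5 in numbers 1 and 4 and its 49.5 to 113 in numbers 2 and 5. The differences from numbers 3 and 6 were -0.76 (SE 0.12) and -0.90 (SE 0.13). Irf1 and Gbp3 also lay lower in numbers 3 and 6 than in numbers 2 and 5 without overlap, and Ifi27 lower than in numbers 1 and 4. Rsad2, at 7.70 to 12.0025 CPM in numbers 3 and 6, differed from numbers 2 and 5 by -0.83 (SE 0.18).

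Parp14 and Trim25 were highest in numbers 2 and 5. Parp14 lay at 44.3 to 53.4 CPM in numbers 1 and 4 and at 63.5 to 128 in numbers 2 and 5, a difference of 0.75 (SE 0.12, adjusted p = 0.000111 by edgeR). Trim25 lay at 104 to 135 CPM in numbers 1 and 4, at 133 to 203 in numbers 2 and 5 and at 104 to 134 in numbers 3 and 6. Parp12 and Gbp7 were higher in numbers 2 and 5 than in numbers 1 and 4 without overlap. Usp18 and Ifi44 had differences of 0.61 (SE 0.15) and 0.87 (SE 0.21) in that comparison. Shisa5 was the 1 member called lower in numbers 2 and 5 than in numbers 1 and 4, by a log2 value of -0.23 (SE 0.04). Igtp, Tap1 and Lgals3bp, at -0.12, -0.14 and -0.02, were not called there.

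No member was called for a difference of the time comparison between number sets. For the interaction of time and number set, edgeR called 0 members (0% of all genes), and DESeq2 called 0 (0.00676%). By edgeR, 4 were at an unadjusted p under 0.05 (Irf1, Mx1, Mx2 and Cxcl10), where 2.81% of all genes were. Without the filter on low counts edgeR called 18 members, among 302 of the 26331 genes then tested (1.15%). Labelled time held a median of 26.1% of a member's variance in log2 CPM and number set 39.5%, against 3.78% and 62.7% over all tested genes. In 16 of 48 members time held more than the number set, against 9.24% of all genes, and 37 of 48 were among the tenth of genes with the largest share for time. These shares describe the same 18 libraries as the comparisons above and carry no test. Tap1 had 52.1% between labelled times and 5.73% between sets, while Gbp2 had 8.15% and 80.0%.

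**Figure D5:**
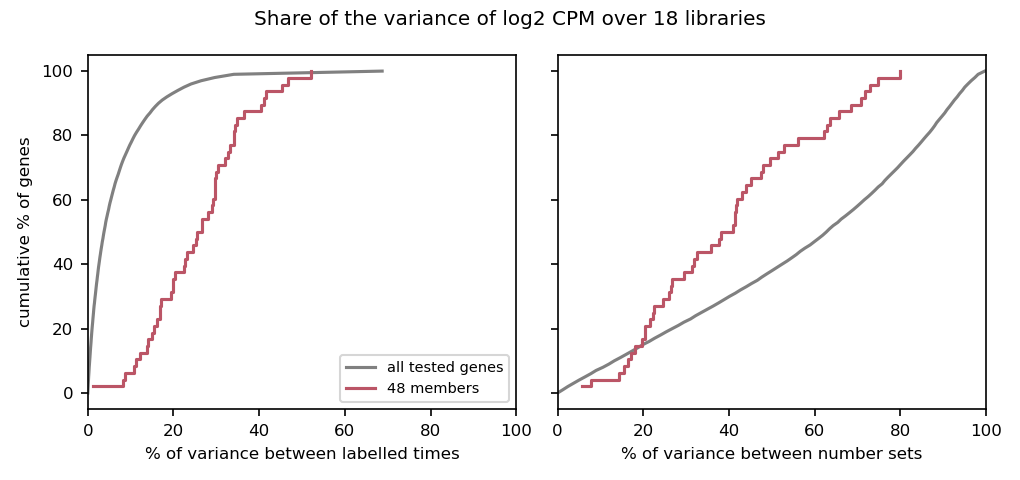
Cumulative percent of genes (vertical axis) against the percent of a gene's variance over 18 libraries that lies between labelled times (left) or between number sets (right), for the 48 members and all tested genes. The members lie to the right of all genes for time, with medians of 26.1% and 3.78%, and mostly to the left for the number set, with 39.5% and 62.7%.

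Transcripts for the interferons themselves were at or near 0. Of 21 interferon genes in the table, 15 had no count in any of the 18 libraries and none passed the filter. Ifnb1, which encodes interferon beta, had 7 counts over all libraries, and Ifng, interferon gamma, had 0. Of 9 receptor chains and kinases, 0 had an unadjusted p under 0.05 at 24 h against 0 h with or without the block. At 4 h against 0 h, 3 of the 9 were higher at that level with the block (4.98% of all genes) and 0 without it. Between numbers 2 and 5 and numbers 1 and 4, 6 of these 9 were called higher and 1 lower. Of all genes, 29.6% were called higher there and 29.9% lower. The largest difference between times was that of Ifngr2, a chain of the interferon gamma receptor, at 31.5 ± 0.89 CPM in the libraries labelled 0 h and 33.2 ± 1.91 in those labelled 24 h (SD, n = 6), a log2 value of 0.08 (SE 0.05). The 1 called lower was Ifnlr1, the interferon lambda receptor chain, which stood at 1.60 ± 0.17 CPM in numbers 1 and 4 and 0.45 ± 0.30 in numbers 2 and 5 (SD, n = 6), a log2 value of -1.60 (SE 0.24) by edgeR.

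Other genes of the pathway were read from lists outside the 48 members, also chosen with earlier results of these data known. Of 47 tested interferon-induced genes outside the members, 46 had a positive value at 24 h against 0 h, with a median of 0.31. At an unadjusted p under 0.05, 18 were higher (0.872% of all genes), or 33 with the block (4.52%), while 0 were called. Ifi205, a DNA-binding member of the Ifi200 family, had the largest, 0.73 (SE 0.41). All 14 antigen presentation genes were positive, with a median of 0.20. At an unadjusted p under 0.05 there were 5 (9 with the block), beside the same shares of all genes. Among them was H2-T23, a nonclassical class I molecule, at 0.37 (SE 0.13). Socs1, the feedback inhibitor of the receptor kinases, had 0.58 (SE 0.21), and Tlr3, a receptor of double-stranded RNA, 0.51 (SE 0.18). Between numbers 2 and 5 and numbers 1 and 4, 29.6% of all genes were called higher and 29.9% lower. Of the 47 other interferon-induced genes, 26 were called higher and 3 lower. The counts higher and lower were 3 and 1 of 5 STAT and IRF factors and 4 and 3 of 10 sensing genes. They were 4 and 6 of 12 negative regulators and 1 and 4 of 14 antigen presentation genes. In each list the gene with the largest difference between sets is given here, whatever its direction. Tlr4, the lipopolysaccharide receptor, stood 1.72 higher in numbers 2 and 5 than in numbers 1 and 4 (SE 0.07), Gbp6 1.73 higher (SE 0.20) and Irf5 1.49 higher (SE 0.22), all called by edgeR. Irf5 was scarce, at 0.63 ± 0.20 CPM in numbers 1 and 4 and 1.89 ± 0.64 in numbers 2 and 5 (SD, n = 6). Samhd1, which depletes nucleotides, was called higher by 0.83 there (SE 0.04), unlike most called genes of its list of negative regulators, and Tap2, the partner of Tap1, was called lower, at -0.64 (SE 0.05).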

How the data were processed

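Total RNA of 18 libraries was sequenced, 6 at each labelled time. The authors deposited expected counts per gene, estimated by salmon, per the labels. Per the submitters' processing notes, edgeR, limma and build mm10 were used. Salmon's version, annotation and strand option were not given in the sources used here. Values were rounded, since 27.4% of those above 0 were not whole.

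Genes were kept by filterByExpr (minimum count 10, minimum total 15). Scaling was by TMM, edgeR's trimmed mean method, and log2 CPM used a prior count of 2. Tests used edgeR's robust quasi-likelihood F-test on all 18 libraries, two-sided, with Benjamini-Hochberg adjustment over 14788 genes and a threshold of 0.05 (14929 genes without 24 h replicate 5). Times were fitted alone, number sets with time, and the interaction with both. SE is the fit's standard error, and SD the spread over libraries. The scripts were tested on simulated data that lacked the wide differences between number sets found here. That check therefore does not show how the tests behave with such differences. Alternatives were RLE scaling, no filter, a non-robust estimate, DESeq2, limma-voom, the replicate block, the number set beside time, library totals and leaving out each library.

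The pairing was checked. After the mean of each group was removed, same-numbered libraries had correlations of 0.297 to 0.718 over genes, above the bound of 0.1 in 18 of 18 pairs (median 0.590). Libraries of 1 set with different numbers had 0.237 to 0.688 (median 0.569), also above it in 18 of 18, so the correlation followed the set about as closely as the number. The numbers come from the titles, and the labels tie them to no culture or day.

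Members, lists and number sets were chosen with earlier results of these data known. Genes given in full were, per role, the member of the highest level, the one with the largest difference of 24 h against 0 h and the one with the largest between sets, with Irf7, Ifit3 and Ifit3b. Ifit1, Isg15, Tap1, Ifi27, Rtp4, Shisa5 and the members named for calls or overlap were chosen after their values were seen. From the pathway lists, the same rule named the genes with the largest differences, and 1 gene it also named is not reported here. Positions came from GENCODE M21 (mm10). Versions were edgeR 4.0.16, DESeq2 1.42.0 and limma 3.58.1 under R 4.3.3, and pandas 2.3.3, numpy 2.4.6 and matplotlib 3.10.9 under Python 3.11.15.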

Additional observations from a re-analysis of the deposited data

Results flagged for a closer look

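In 2 of 63 groups of 6 libraries examined, over the 20 genes named by rule and the mean of the members, 1 library lay far from the others by Dixon's criterion, which chance meets in about 1 group in 20. Trim25 was at 189.6 CPM in 4 h replicate 5, where the nearest other 4 h library was at 133.9. Oas1a was at 11.09 CPM in 4 h replicate 6, where the nearest other was at 4.282.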

How the results depend on the processing

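Counts of members called at each labelled time stayed at 0 under all alternatives run, with 1 exception. Limma-voom with library weights and the replicate block called 2 members at 24 h against 0 h. The replicate block in edgeR called 0 and changed no other call, with medians of 0.15, 0.34 and 0.20 at 4 h against 0 h, 24 h against 0 h and 24 h against 4 h. Between number sets, leaving out 1 library gave 21 to 33 members for numbers 2 and 5 against 1 and 4, 16 to 25 for 3 and 6 against 1 and 4 and 25 to 37 for 3 and 6 against 2 and 5, where 55.9% to 60.2%, 56.8% to 60.1% and 52.8% to 57.3% of all genes were called. No filter gave 34 for 3 and 6 against 1 and 4 and 18 for the interaction. Of the 26331 genes then tested, 34.9% and 1.15% were called. These shares count genes of low count too, whereas all members pass the filter. With the filter, 59.7% of 14788 genes were called in the former. Library totals without scaling gave 13 for 2 and 5 against 1 and 4, 10 for 3 and 6 against 2 and 5 and a median member of -0.0196 in the latter. Under those totals, chosen after seeing the data, the sign turned for Ddx58 (0.0627), Samd9l (0.0268), Trim25 (0.1665) and Usp18 (0.1241) in 3 and 6 against 1 and 4, and for Stat2 (0.0937), Ddx58 (0.0095), Adar (0.0321), Lgals3bp (0.0563), Mx1 (0.0422) and Igtp (0.0337) in 3 and 6 against 2 and 5. The cause of these changes was not tested. The median of 4 h against 0 h was 0.088 without 4 h replicate 5 and 0.10 without 4 h replicate 6. Of the values of single genes, 1377 of those with 1 library left out kept their side of the threshold, 49 lost it and 14 gained it. The lowest library total, 7010740, limits the precision of scarce members such as Mx1 and Oas1a.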
